A study of Homo sapiens with 6 samples.

Results

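Open chromatin was described here around 10 genes of extracellular matrix turnover, the matrix metalloproteinases MMP1, MMP2, MMP3, MMP9, MMP10, MMP13, MMP14 and MMP28 and the tissue inhibitors of metalloproteinases TIMP2 and TIMP3. The genes were chosen by name, with earlier results of these data known, from 20033 protein-coding genes of GENCODE release 44. A gene's window was the gene body with 10 kb on either side, and every open region of the 6 region lists that touched a window was taken. The 6 lists, merged where their regions overlapped, gave 49527 open regions, of which 32 lay in the 10 windows.

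ATAC-seq, which marks open chromatin by the insertion of a transposase, was performed on MCF10A cells. These are an established nontumorigenic line of human mammary epithelial cells, which the study calls wildtype. About 50000 cells per library were held for 30 min in phosphate-free HEPES-buffered Hanks solution (HHBSS), which all 3 conditions share. They were then left untreated in HHBSS, given 50 μM tris(2-pyridylmethyl)amine (TPA), a Zn2+ chelator, or given 30 μM ZnCl2, for another 30 min. Each condition has 2 libraries, which the study's methods call biological and its results technical replicates, so that comparisons measure only the spread between these samples. A list made from many nuclei cannot tell apart a site open in fewer nuclei from a site less open in each nucleus.

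Matrix metalloproteinases are endopeptidases that hold a catalytic zinc ion and are made as inactive proenzymes. They cleave collagens, laminins and other matrix proteins, as well as growth factors and receptors at the cell surface. Tissue inhibitors of metalloproteinases bind the active site, and many of the metalloproteinase genes lie in a cluster on chromosome 11 and are induced through AP-1 in epithelial cells. Breast epithelium and its stroma use these enzymes in branching and in remodeling after lactation. The comparison addressed whether the chromatin of genes for zinc-dependent proteases differs when labile Zn2+ is removed or raised.

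The lists of the untreated libraries held 25031 and 44641 regions, those of TPA 35902 and 41376, and those of ZnCl2 38069 and 18887. They covered 35.7 to 94.2 Mb, and 44.1 to 57.5% of the coding gene starts lay in a region. ZnCl2 2 had the shortest list and untreated 2 the widest open total, so lists of the same condition differed in length and reach. TPA 2 held 998 regions over 10 kb wide, against 29 to 157 in the other libraries. The ZnCl2 2 list also held no region on chromosome 20 from 28495981 to 50028410, a stretch with 232 coding genes, MMP9 among them. In this stretch 3 or more of the other lists shared 388 regions, so ZnCl2 2 was taken to have no value there. The lists carry no read counts, so the depth is unknown and no counting interval can be given. The labelled cell type was checked against its markers. Starts of 2 to 6 of 7 basal mammary epithelial markers and 2 to 4 of 4 epithelial markers were covered per library. Of 4 luminal hormone receptor markers and 4 immune markers 1 start each was covered in each library, and of 5 fibroblast and endothelial markers 1 in untreated 2 and 0 elsewhere.

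Coverage of the start site varied among the members from 6 of 6 libraries to 0. The MMP28 start lay in an open region in 6 of 6 libraries, the MMP14 start in 5, the MMP1 and TIMP3 starts in 4, the MMP10 and TIMP2 starts in 2 and the MMP3 start in 1. The starts of MMP2, MMP9 and MMP13 were in no region of any list. Per library, 3 and 6 member starts were covered in the untreated, 4 and 4 in the TPA and 6 and 1 in the ZnCl2 libraries. Untreated 2 and ZnCl2 1 covered the same 6 starts, although they belong to different conditions. No member start was covered in both libraries of 1 condition and in neither of another. Over all coding genes with a covered start, 1.46% showed that between TPA and untreated, 0.400% between ZnCl2 and untreated and 2.70% between ZnCl2 and TPA.

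**Figure D1:**
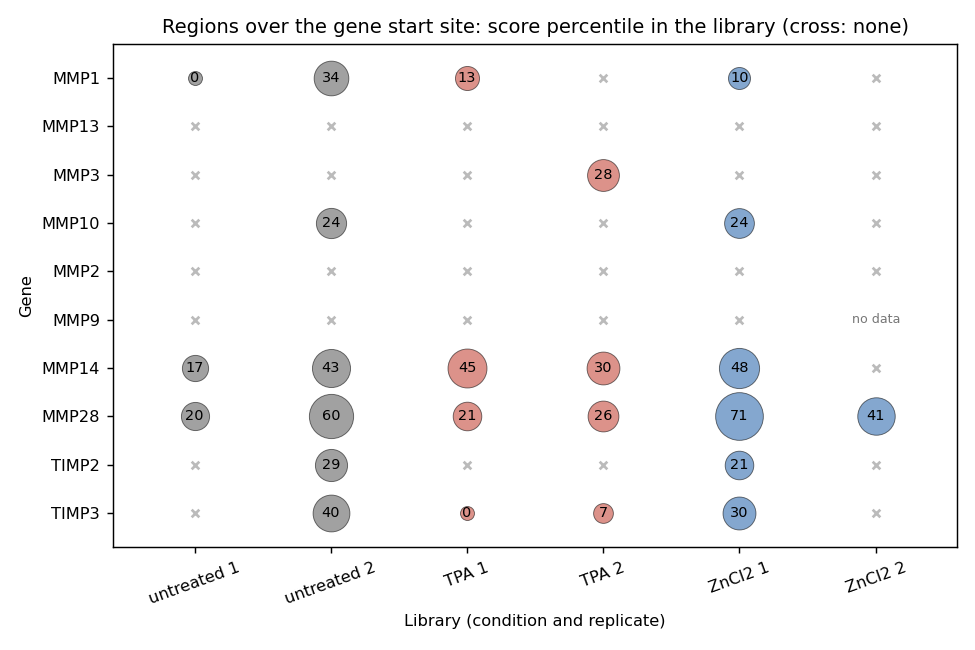
Open regions over the start site of each gene (rows) in each library (columns, condition and replicate); the number and the size of a disc give the score percentile, the percent of the regions of the same list with a lower score, and a cross marks a start in no region (no data: the list lacks the stretch). MMP28 has a disc in 6 of 6 libraries, while untreated 2 and ZnCl2 1 each have 6 discs and ZnCl2 2 has 1.

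Open width, the base pairs of a window inside open regions, was compared over libraries. A member was called where both libraries of 1 condition lay above both of the other. Against untreated, TPA gave 0 of 10 members with a higher and 1 with a lower width, MMP1, where all genes gave 2.22% higher and 9.39% lower. ZnCl2 gave 0 of 8 members with a higher and 1 with a lower width than untreated, MMP10, against 4.55% and 2.61% of all genes. ZnCl2 against TPA gave 0 of 9 higher and 1 lower, again MMP10, against 34.4% and 10.4% of all genes. In an exact two-sided permutation test of 2 against 2 libraries p cannot fall below 0.333, and none of the 28 tests made could pass a threshold.

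Of the 31 merged regions in the windows that every list could hold, 11 (35.5%) were open in all 6 libraries and 5 (16.1%) in 1, close to the 32.4% and 16.7% of all merged regions. The 11 include stretches of 25770 bp at MMP14 and 35430 bp at the edge of the TIMP2 window, each holding a broad TPA 2 call. In ZnCl2 2 the MMP14 stretch was open past the gene only, and at TIMP2 only the TPA 2 call reached the window. Both TPA and neither untreated library held 1 of 31, where 2.15% of all regions did, and the reverse held for 0 of 31, where 0.740% did. Both untreated and neither ZnCl2 library held 1 of 27 (1.85% of all regions), and the reverse held for 0 of 27 (0.186%). Both TPA and neither ZnCl2 library held 3 of 30 (10.5% of all regions), and the reverse held for 0 of 30 (1.08%). The region gained with TPA lies in MMP2, that missing with ZnCl2 lies upstream of MMP10, and the 3 that parted TPA from ZnCl2 are these and another MMP2 region.

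**Figure D2:**
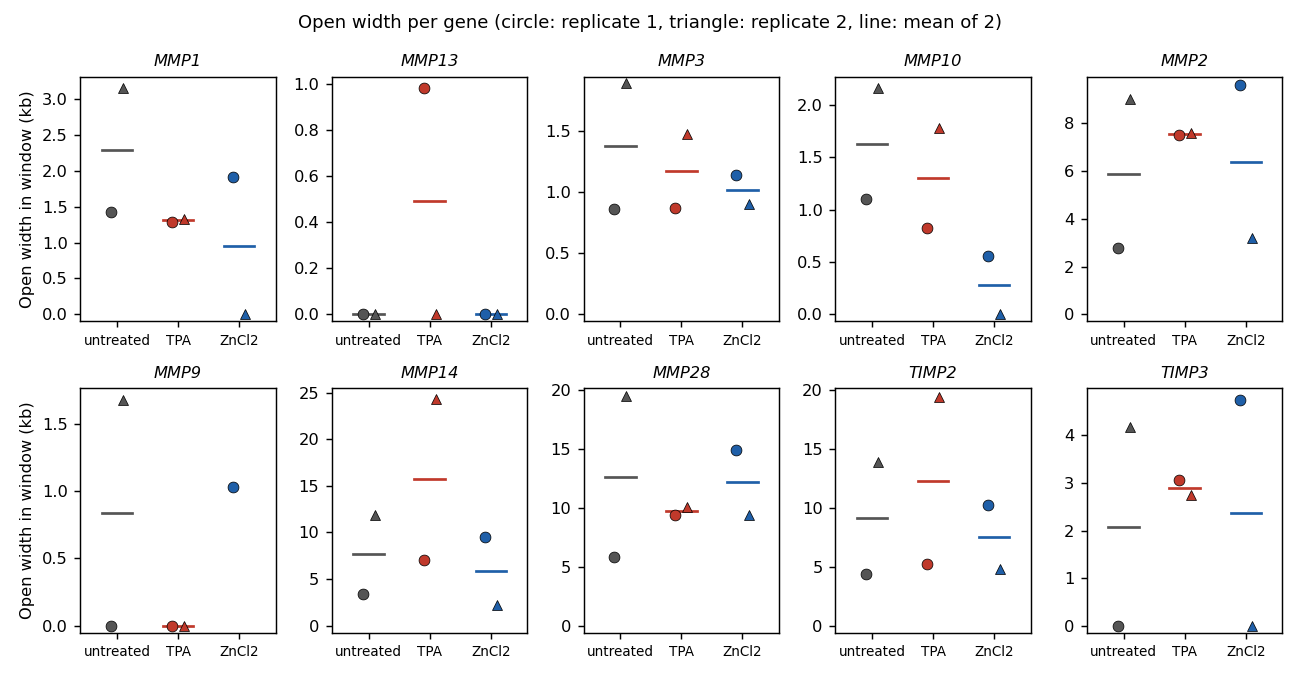
Open width in the window of each gene in kb (vertical axis, separate scale per panel) for untreated, TPA and ZnCl2; circles are replicate 1, triangles replicate 2 and lines the mean of 2. The MMP10 values of ZnCl2, 560 and 0 bp, lie under the other 4, and MMP9 has no value in ZnCl2 2.

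The region that parted ZnCl2 from both other conditions lay upstream of MMP10 (ENSG00000166670, chr11:102770502-102780628, minus strand), a stromelysin that cleaves proteoglycans and activates other proenzymes. A region 2.7 to 4.1 kb before the MMP10 start, at chr11:102783361-102784730 (hg38), was open in both untreated and both TPA libraries and in neither ZnCl2 library. It lies outside coding genes and inside the noncoding gene WTAPP1, and also falls in the window of MMP1, whose window shares 11228 bp with that of MMP10. Its score percentile was 45.1 and 44.2 in the untreated and 76.9 and 53.2 in the TPA libraries. Of all merged regions, 1.54% were open in the same 4 libraries and absent from both ZnCl2 lists. ZnCl2 2 has the shortest list, with 18887 regions, but ZnCl2 1, with 38069, lacked the region as well. The part of list length in these absences was not tested.

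A second upstream region of the cluster behaved otherwise. It lies 7.1 to 8.3 kb before the start of MMP3 (ENSG00000149968, chr11:102835801-102843609, minus strand), the other stromelysin, at chr11:102850751-102851950, outside any gene, and was open in 6 of 6 libraries. Its percentile was 39.9 and 63.9 in untreated, 68.1 and 68.0 in TPA, and 58.7 and 9.41 in ZnCl2. Both TPA values lay above the other 4, the lowest value was that of ZnCl2 2, and untreated and ZnCl2 overlapped. A percentile is a share of its own list, so the same rank from the top gives a lower percentile in a shorter list. The 9.41 of ZnCl2 2 was rank 16272 from the top, beside 15743 in untreated 2 and 15328 in ZnCl2 1. The share of all regions whose percentiles part by condition was not counted, here or for the regions below. The middle 300 bases of both regions are shown because they resemble each other, with the AP-1 heptamer TGANTCA in capitals (hg38, plus strand).
MMP10 upstream chr11:102783656-102783955: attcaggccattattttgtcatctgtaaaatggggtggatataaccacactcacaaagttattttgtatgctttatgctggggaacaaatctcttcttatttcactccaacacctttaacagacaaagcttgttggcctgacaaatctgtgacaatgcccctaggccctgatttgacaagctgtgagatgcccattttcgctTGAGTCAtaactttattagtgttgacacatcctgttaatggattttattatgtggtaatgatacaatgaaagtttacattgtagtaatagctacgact
MMP3 upstream chr11:102851296-102851595: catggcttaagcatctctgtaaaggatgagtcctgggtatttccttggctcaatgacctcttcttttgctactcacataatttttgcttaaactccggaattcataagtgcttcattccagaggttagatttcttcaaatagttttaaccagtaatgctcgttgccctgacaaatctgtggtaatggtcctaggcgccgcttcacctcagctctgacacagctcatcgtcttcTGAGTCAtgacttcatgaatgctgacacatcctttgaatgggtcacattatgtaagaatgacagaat

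Among 496 pairs of middle sequences from the members' regions, this pair had the highest local alignment score, 89 against 39 for the next pair. The aligned stretch had 159 columns, with 115 identical bases (72.3%) and 6 gap columns, and ran from 102783770 to 102783924 near MMP10 and from 102851439 to 102851595 near MMP3. The AP-1 heptamers fell in the same alignment columns. This likeness was looked for after the sequences had been seen and is a description.

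At the MMP10 start itself, a region was found in untreated 2 and ZnCl2 1 at percentiles 24.5 and 23.6, and in neither TPA library. It reached 612 bp upstream in untreated 2 and 132 bp in ZnCl2 1. The open width of the MMP10 window was 1100 and 2160 bp in untreated, 830 and 1779 bp in TPA and 560 and 0 bp in ZnCl2. Both ZnCl2 values lay below the other 4, while untreated and TPA overlapped. The means were 1630 ± 750 bp in untreated, 1304.5 ± 671 bp in TPA and 280 ± 396 bp in ZnCl2 (SD, n = 2). The ZnCl2 mean fell by 1350 bp against untreated and fell by 1024.5 bp against TPA, each with an exact permutation p of 0.333, the smallest that 2 against 2 allows. Both calls were absent with 50 kb flanks, at -1585 bp against untreated and -690 bp against TPA (exact permutation p = 0.667 each), and that against untreated was also absent in the upper 50% of each list by score, at 0 bp. Both were absent as well with 2 kb flanks, which leave out the upstream region, and in lists of equal length, 18887 regions each, where untreated 2 and TPA 2 lost that region at scores of 50 and 54, where their lists ended at 60 and 54 and ties were kept by position. The 250 bases before the MMP10 start, from RefSeq (hg38, minus strand, chr11:102780629-102780878), are shown because they hold an AP-1 heptamer and a TATA box (TATAAA), both in capitals.
MMP10 promoter: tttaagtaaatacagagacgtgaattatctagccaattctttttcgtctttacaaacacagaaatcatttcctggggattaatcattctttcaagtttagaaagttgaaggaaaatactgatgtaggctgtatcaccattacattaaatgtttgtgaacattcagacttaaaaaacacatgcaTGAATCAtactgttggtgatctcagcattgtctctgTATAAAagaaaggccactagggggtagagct

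**Figure D3:**
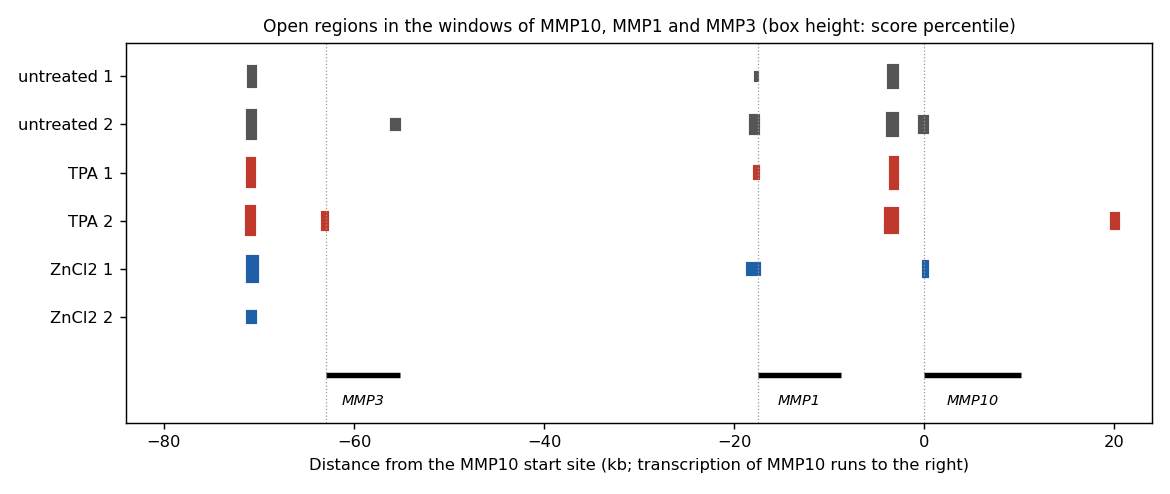
Open regions in the windows of MMP3, MMP1 and MMP10 by library, as boxes along the distance from the MMP10 start site in kb, with gene bodies as black bars, start sites as dotted lines and box height rising with the score percentile. The box 2.7 to 4.1 kb before MMP10 is present in the 4 untreated and TPA rows and absent from both ZnCl2 rows, while the box before MMP3 is present in all 6.

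MMP1 (ENSG00000196611, chr11:102789401-102798160, minus strand), the interstitial collagenase, had an open start in both untreated libraries, TPA 1 and ZnCl2 1. The regions were small and weak: 330 and 990 bp in untreated at percentiles 0 and 34.3, 460 bp in TPA 1 at 13.1, and 1350 bp in ZnCl2 1 at 9.89. TPA 2, with 41376 regions, and ZnCl2 2 had none there. Open width of the window was 1430 and 3150 bp in untreated, 1290 and 1330 bp in TPA, and 1910 and 0 bp in ZnCl2. The TPA values lay below both untreated values (means 1310 ± 28.3 and 2290 ± 1216 bp, SD, n = 2, exact permutation p = 0.333). In the upper 50% of each list by score that order turned over, because the region upstream of MMP10 was kept in both TPA lists and in neither untreated list. That region made up 1100 and 1160 bp of the MMP1 width in untreated and 830 and 1330 bp in TPA. With 2 kb flanks, which leave it out, the MMP1 call was absent, at -430 bp (exact permutation p = 0.667). The call was also absent with 50 kb flanks, at -740 bp, and in lists of equal length, at -135 bp.

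MMP3 had a start region in TPA 2, 610 bp wide at percentile 27.9, and in no other library. Its open width was 860 and 1890 bp in untreated, 870 and 1480 bp in TPA and 1140 and 900 bp in ZnCl2, and the conditions overlapped. MMP13 (ENSG00000137745, chr11:102942995-102955732, minus strand) is a collagenase that favors the fibrillar collagen of cartilage. Its window held 1 region in all, in TPA 1, in an intron 4.5 to 5.4 kb after the start, with a score of 31 where the lists begin at 30. The 8 distinct regions of the chromosome 11 genes also differed in sequence from the other 24. Their middle 300 bases held AP-1 in 6 of 8 and the Sp1 hexamer GGGCGG in 0 of 8, against 5 and 10 of 24, with GC contents of 33.3 to 46.3% against 39.3 to 74.7%. This grouping was made after the counts were seen and is a description with no test.

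MMP2 (ENSG00000087245, chr16:55389700-55506691, plus strand), a gelatinase that cleaves denatured collagen and basement membrane collagen, held the region that was open in both TPA libraries and in none of the other 4. It lies in an intron of the GENCODE gene, 80.7 to 83.1 kb after the GENCODE start, at chr16:55470391-55472840, but upstream of the RefSeq start. Of all merged regions, 1.61% had this pattern. Its widths were 2170 and 2450 bp and its percentiles 26.3 and 27.9. In lists of equal length neither TPA list kept it, with scores of 39 and 40 against limits of 49 and 54. The middle 300 bases are shown with the AP-1 heptamer in capitals (hg38, plus strand).
MMP2 intron chr16:55471496-55471795: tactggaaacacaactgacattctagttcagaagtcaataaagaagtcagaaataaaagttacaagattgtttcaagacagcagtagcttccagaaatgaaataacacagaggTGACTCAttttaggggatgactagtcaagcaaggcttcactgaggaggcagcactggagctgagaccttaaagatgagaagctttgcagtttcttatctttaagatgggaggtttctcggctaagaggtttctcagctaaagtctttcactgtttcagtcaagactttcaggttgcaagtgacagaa

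A second MMP2 intron region, 47.7 to 48.8 kb after the start, was open in both TPA libraries at percentiles 21.2 and 38.3 and in untreated 2 at 9.29, and in neither ZnCl2 library. An intron region 109.8 to 114.0 kb after the start was open in 6 of 6 libraries, at 60.8 and 63.9 in untreated, 69.2 and 63.6 in TPA, and 41.9 and 4.90 in ZnCl2. Both ZnCl2 values were below the other 4. The lowest percentile was again in ZnCl2 2, at rank 17110 from the top, but the lowest rank, 21523, in ZnCl2 1. Between these intron regions, a region 74.6 to 76.6 kb after the start was open in every library but ZnCl2 2. Its percentiles were 4.60 and 36.0 in untreated, 6.79 and 45.4 in TPA and 41.9 in ZnCl2 1. The first TPA library stood next to the first untreated one. Open width was 2770 and 9020 bp in untreated, 7520 and 7580 bp in TPA and 9600 and 3180 bp in ZnCl2, and the conditions overlapped. The GENCODE start used for the gene lies 89130 bp upstream of the RefSeq start. The regions at 47.7 to 48.8 and 74.6 to 76.6 kb thus also lie before the RefSeq start. At the RefSeq start a region was found in ZnCl2 1 and in no other library, and at any annotated transcript start in TPA 1 and ZnCl2 1.

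**Figure D4:**
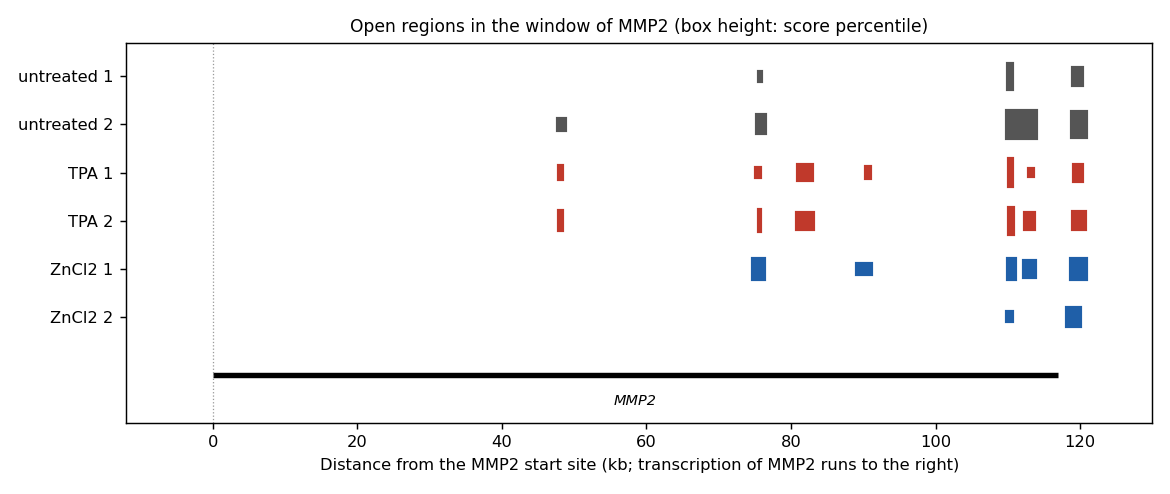
Open regions in the window of MMP2 by library, as boxes along the distance from the GENCODE start site in kb, with the gene body as a black bar and box height rising with the score percentile. The box at 80.7 to 83.1 kb is present in both TPA rows and absent from the other 4, and no box touches the start at 0.

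MMP9 (ENSG00000100985, chr20:46008908-46016561, plus strand), the other gelatinase, had an open region in untreated 2 at percentile 17.1 and in ZnCl2 1 at 51.3, over exons 4.5 to 6.2 kb after its start. Untreated 1 and both TPA lists held none in the window, and ZnCl2 2 has no value. The comparisons with ZnCl2 were therefore not made for MMP9.

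MMP14 (ENSG00000157227, chr14:22836560-22849041, plus strand) is a membrane-type metalloproteinase that activates the proenzyme of MMP2 together with TIMP2. The start region ran from 249 to 1249 bp upstream to 3190 to 3890 bp downstream in both untreated libraries, TPA 1 and ZnCl2 1. Its percentiles were 16.8 and 42.8 in untreated, 45.1 and 30.1 in TPA and 48.4 in ZnCl2 1. In ZnCl2 2 the nearest region lay 13831 bp from the start. The TPA 2 value came from a single call of 22270 bp over the whole gene, and without regions over 10 kb that library had no call at the start. Other regions lay on either side. One about 6 to 8 kb upstream was called in untreated 2 at 55.8, in TPA 1 at 13.1 and in ZnCl2 1 at 3.52, and in neither untreated 1 nor ZnCl2 2, while in TPA 2 the broad call ran over it. At and past the end of the gene, regions were called in untreated 2, both TPA libraries and both ZnCl2 libraries, and in ZnCl2 2 this was the only one of the window, at 9.41. Open width was 3440 and 11850 bp in untreated, 7060 and 24330 bp in TPA, and 9470 and 2260 bp in ZnCl2. The conditions overlapped, and the highest value was that with the broad call.

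MMP28 (ENSG00000271447, chr17:35756249-35795707, minus strand), the epilysin of epithelia, had 5 to 8 regions in each library. Its start region was 1500 to 5490 bp wide, with percentiles of 20.4 and 60.1 in untreated, 21.2 and 25.7 in TPA, and 70.9 and 41.2 in ZnCl2. Both ZnCl2 values were above both TPA values, and the untreated pair spanned most of the range. In lists of equal length the start region was kept in both ZnCl2 libraries and in neither TPA library, as was an intron region at chr17:35763661-35767620, 28.1 to 32.0 kb after the start. The latter was also kept in both untreated libraries. Here ZnCl2 2 is the full list, and the other 5 are shortened to it. These were 2 of 14 member regions that differed between ZnCl2 and TPA in such lists, where 16.8% of all regions did. Between TPA and untreated 2 of 13 differed, the second being the region over the LPCAT2 start at the edge of the MMP2 window, against 9.20% of all regions, and between ZnCl2 and untreated 0 of 14, against 7.52%.

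A pair of MMP28 intron regions had higher percentiles than the start region, the first in 6 of 6 libraries and the second in 5. That 9.6 to 12.8 kb after the start, at chr17:35782901-35786140, had percentiles of 84.9 and 87.2 in untreated, 87.9 and 83.0 in TPA, and 78.0 and 43.9 in ZnCl2. That 6.0 to 8.3 kb after the start had 69.2 and 83.7, 82.9 and 81.0, and 70.0 and 60.5. At the first region both ZnCl2 values lay below the other 4, and at the second they overlapped with untreated. A further intron region, 28.1 to 32.0 kb after the start, was also above the start region in 6 of 6 libraries. It had 42.6 and 63.0 in untreated, 43.4 and 48.7 in TPA, and 80.2 and 60.5 in ZnCl2. There both ZnCl2 values lay above both TPA values and overlapped with untreated. The remaining 4 regions of the window reached percentile 51.0 at most. That 15.8 to 18.2 kb after the start was open in untreated 2, both TPA libraries and ZnCl2 1, at 17.1, 41.5, 38.3 and 30.3, and that 8.4 to 10.1 kb upstream in every library but TPA 1, at 6.68 to 51.0. The window's open width was 5860 and 19422 bp in untreated, 9380 and 10020 bp in TPA, and 14910 and 9417 bp in ZnCl2. The untreated pair enclosed the other 4 values. The start region and the first of these intron regions differed in the order of the conditions, which was not tested. The middle of the first is shown with its AP-1 heptamer and its ETS hexamer (AGGAAG) in capitals (hg38, plus strand).
MMP28 intron chr17:35784921-35785220: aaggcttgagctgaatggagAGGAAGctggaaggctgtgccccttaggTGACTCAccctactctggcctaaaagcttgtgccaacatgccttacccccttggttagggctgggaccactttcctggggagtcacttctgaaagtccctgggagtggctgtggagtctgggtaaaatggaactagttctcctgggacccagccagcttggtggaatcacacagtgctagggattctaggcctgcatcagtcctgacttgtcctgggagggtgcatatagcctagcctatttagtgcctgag

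**Figure D5:**
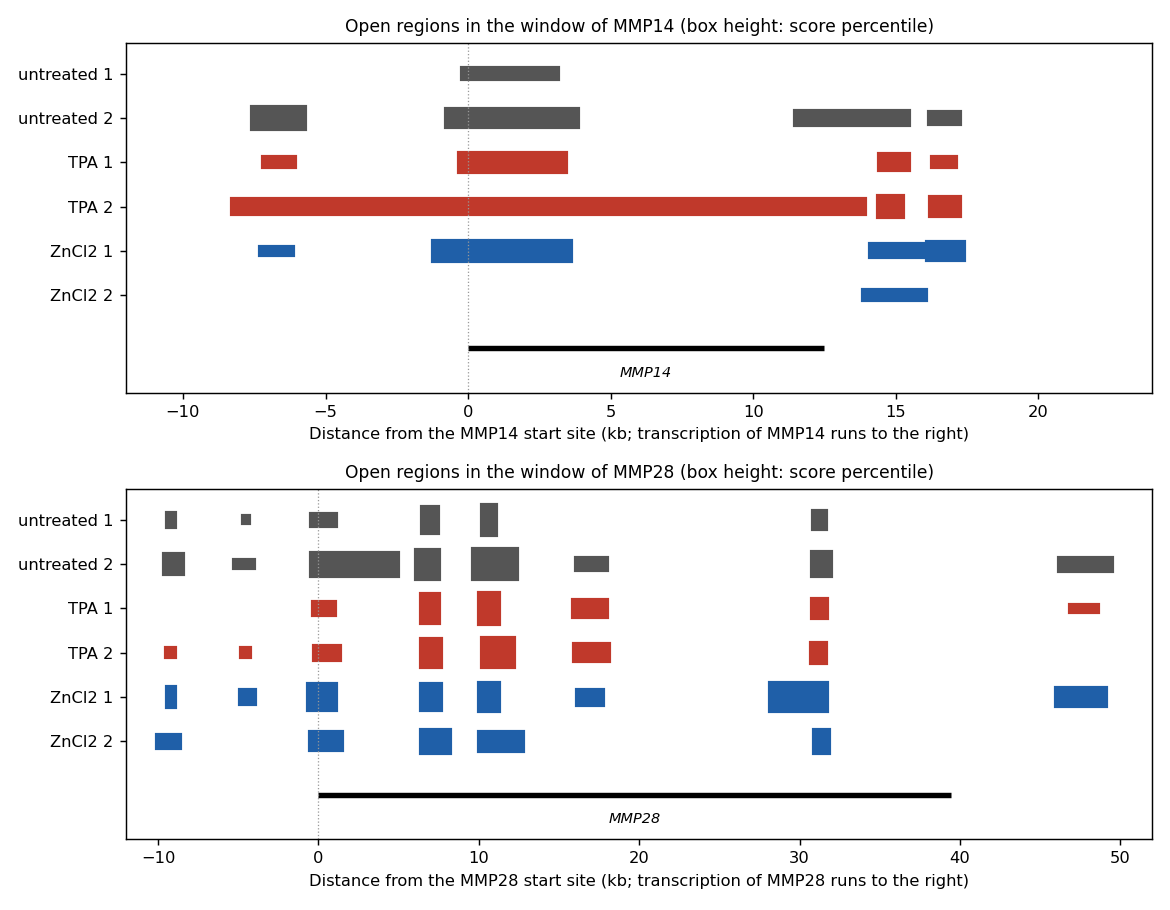
Open regions in the windows of MMP14 (top) and MMP28 (bottom) by library, as boxes along the distance from each start site in kb, with gene bodies as black bars and box height rising with the score percentile. TPA 2 has 1 call of 22270 bp over MMP14, and the MMP28 start is covered in all 6 rows with taller boxes in the ZnCl2 than in the TPA rows.

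TIMP2 (ENSG00000035862, chr17:78852977-78925387, minus strand) inhibits the gelatinases and takes part in activating proMMP2 at the cell surface. Its start was in no region in 4 of 6 libraries. Start regions were found in untreated 2 at percentile 28.6 and in ZnCl2 1 at 21.2. An intron region 38.4 to 43.6 kb after the start was open in 6 of 6 libraries, at 47.9 and 75.3 in untreated, 81.5 and 85.4 in TPA, and 76.3 and 35.2 in ZnCl2. Both TPA values were above the other 4. A region 62.5 to 63.7 kb after the start gave 34.2 and 69.8, 80.8 and 83.0, and 60.8 with none in ZnCl2 2, in the same order. How many of all regions have such an order was not counted. Upstream of the gene, a region 7.4 to 11.4 kb before the start was open in 6 of 6 libraries, at 27.7 and 72.7 in untreated, 68.1 and 73.8 in TPA, and 62.9 and 28.7 in ZnCl2. An intron region 8.2 to 10.5 kb after the start was open in untreated 2, both TPA libraries and ZnCl2 1 at 27.9 to 41.5. It was absent from untreated 1 and ZnCl2 2, whose lists are the shortest. The part of list length in this absence was not tested. Open width was 4380 and 13877 bp in untreated, 5240 and 19404 bp in TPA, and 10277 and 4820 bp in ZnCl2. The conditions overlapped, and the value of TPA 2 included part of a 35430-bp call around the start of the neighboring gene USP36.

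TIMP3 (ENSG00000100234, chr22:32801705-32863041, plus strand), an inhibitor bound to the matrix that also acts on ADAM proteases, lies within an intron of SYN3. Its start region was found at percentile 39.5 in untreated 2, at 0 and 6.68 in TPA, and at 30.3 in ZnCl2 1, and in neither untreated 1 nor ZnCl2 2. It was 2740 to 4170 bp wide. Both TPA libraries held it near the lowest score of their lists. The other region of the window lay 4.1 to 4.7 kb upstream and was called in ZnCl2 1, at 12.9. Open width was 0 and 4170 bp in untreated, 3060 and 2740 bp in TPA, and 4750 and 0 bp in ZnCl2, and TPA lay between the extremes of the others. Promoter sequences were matched for 3 of the 10 members, MMP10, MMP14 and TIMP3, and not for MMP1, MMP2, MMP3, MMP9, MMP13, MMP28 and TIMP2. That of TIMP3 (RefSeq, hg38, plus strand, chr22:32801455-32801704) is shown beside that of MMP10 for its 5 Sp1 hexamers, on either strand, in capitals, and the MMP14 promoter held 1.
TIMP3 promoter: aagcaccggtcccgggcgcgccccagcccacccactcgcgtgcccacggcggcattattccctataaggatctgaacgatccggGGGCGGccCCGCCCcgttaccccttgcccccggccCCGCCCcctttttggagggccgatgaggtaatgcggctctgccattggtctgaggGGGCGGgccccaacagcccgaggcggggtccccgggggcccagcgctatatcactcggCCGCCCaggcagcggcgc

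Motifs were searched on both strands as letters and do not show binding. Of all 35116 promoters in the table, 6.57% held AP-1, 10.7% the TATA box, 42.6% Sp1 and 28.7% the ETS hexamer in 250 bases. In the middle 300 bases, 34.4% of the 32 member regions held AP-1, against 35.1% of all 49527 regions. For the TATA box these shares were 9.38 and 12.5%, for Sp1 31.2 and 24.1%, and for the ETS hexamer 40.6 and 32.9%.

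Related genes were given as lists. Of 15 other MMP genes, 4 and 4 starts were covered in the untreated, 2 and 4 in the TPA and 5 and 2 in the ZnCl2 libraries, and 9 were covered in no library. Of 4 other inhibitors the counts were 1 and 2, 2 and 2, and 2 and 2. For 15 other pericellular metalloproteases of the ADAM, ADAMTS and astacin families they were 5 and 10, 7 and 7, and 9 and 7. For 8 activators and partners, such as the plasminogen activator genes, they were 6 and 7, 6 and 6, and 5 and 5. Open width in these 4 lists was counted over the genes with an open region in either condition. TPA was higher than untreated for 1 of 35 genes, another MMP gene, where 2.22% of all genes were. It was lower for 4 of 35, which were 2 other MMP genes, 1 inhibitor and 1 pericellular metalloprotease, against 9.39% of all genes. ZnCl2 was higher than untreated for 0 and lower for 0 of 33 genes, against 4.55% and 2.61%. ZnCl2 was higher than TPA for 6 of 34, which were 2 other MMP genes, 1 inhibitor and 3 pericellular metalloproteases, and lower for 4, which were 1 other MMP gene, 1 inhibitor and 2 activators or partners, against 34.4% and 10.4%.

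A start covered in both libraries of 1 condition and in neither of another was found for 3 of these 42 genes and 1 of the 24 cell type markers. Among the 42, it held for 2 of 24 genes with a covered start between TPA and untreated (1.46% of all such genes), for 0 of 24 between ZnCl2 and untreated (0.400%) and for 2 of 25 between ZnCl2 and TPA (2.70%). Among the markers it held for 1 of 13 between TPA and untreated and for 0 of 12 in either other comparison, beside the same shares of all genes. The 3 genes and the marker are named after their values were seen. MMP19, a metalloproteinase of basement membrane substrates, had its start covered in both TPA libraries and in neither untreated nor ZnCl2 library. Its open width was 3130 and 7420 bp in untreated, 24226 and 24066 bp in TPA, and 4630 and 3890 bp in ZnCl2, so both TPA values stood above the other 4. MMP11, a stromelysin of stromal cells, had a covered start in both untreated libraries and ZnCl2 1 and in neither TPA library, with 2520 and 11430 bp, 2310 and 2200 bp, and 7480 and 2180 bp. ADAM8, a membrane protease, had a covered start in both ZnCl2 libraries and untreated 2 and in neither TPA library. CDH1, which encodes E-cadherin of epithelial junctions, had a covered start in both TPA libraries and ZnCl2 1 and in neither untreated library. Regions over 10 kb, most frequent in TPA 2, were left out for the members only. Their part in the starts and widths of MMP19, MMP11, ADAM8 and CDH1 was not tested.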

How the data were processed

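MCF10A cells were profiled by ATAC-seq in 3 conditions with 2 libraries each. After adapter removal with BBDuk, the authors aligned the pairs to hg38 by HISAT2 (2.1.0) and, library by library with runs combined, ran HMMRATAC to call regions. The deposited lists give position and a score per region, a whole number of at least 30 whose kind is not given in the sources used here, so scores were ranked within a list only. Reads, the authors' merged regions and their blacklist were not used here.

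Regions on chromosomes 1 to 22, X and Y that touched a window by 1 bp or more were taken with GENCODE 44. Members and gene lists were chosen with earlier results of these data known. All 10 members are named, and other listed genes where a start was covered in both libraries of 1 condition and in neither of another. Lists were merged where regions touched. Widths were compared by exact two-sided permutation tests, and the p-values printed are unadjusted. Benjamini-Hochberg adjustment over the 28 tests left none below 0.333, the smallest p of such a test. The test functions were tested on simulated data. Genes and regions in the chromosome 20 stretch missing from ZnCl2 2, defined after seeing the data as holding at least 100 regions shared by 3 or more lists, were left out of comparisons with ZnCl2. Middle sequences are centered on the part shared by most libraries and were aligned with Biopython 1.88 (match 2, mismatch -3, gap opening -5, extension -2). Python 3.11.15, NumPy 2.4.6, SciPy 1.17.1, pysam 0.24.0, bedtools 2.31.1 and Matplotlib 3.10.9 were used. Alternatives were lists of equal length, the upper 50% by score, all contigs, flanks of 2 and 50 kb, at least 50% of a region in the window, other start definitions, width as a share of the library's total, a replicate block and each library left out. Leaving out regions over 10 kb was added after seeing the data, as were all alternatives for counts of merged regions.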

Additional observations from a re-analysis of the deposited data

How the results depend on the processing

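With 2 libraries per condition and no depth, few of these counts were stable. The difference in mean member starts covered was -0.5 for TPA minus untreated (-2 to 1 with 1 library left out), -1 for ZnCl2 minus untreated (-3.5 to 1.5) and -0.5 for ZnCl2 minus TPA (-3 to 2). Lists of equal length turned the last 2 to 0.5 and 1, the upper 50% by score gave 0 and 0.5 for them, and without regions over 10 kb ZnCl2 minus TPA was 0. Members called on open width, 1 in each comparison, came to 3 to 7, 3 to 6 and 4 to 6 in the same order with 1 library left out. A member called on all libraries stays called when 1 is left out, so these counts could not fall. The MMP10 calls stayed for that reason. Against TPA, MMP10 was also lower in ZnCl2 in the upper 50% by score. Lists of equal length gave 2, 0 and 2 calls, with MMP2 and MMP28 lower in TPA than untreated and MMP3 and MMP28 higher in ZnCl2 than TPA. The upper 50% by score gave 3, 1 (MMP2 in place of MMP10) and 3. There MMP1 turned over to 1080 bp higher in TPA than untreated. Flanks of 2 kb gave 0, 0 and 0, and flanks of 50 kb 0, 0 and 2 (MMP13 and MMP28, not MMP10). Width as a share of the library's total gave 4, 3 and 2. By share, MMP1 and MMP3 were lower and MMP2 and MMP14 higher in TPA than untreated. For MMP2 this was opposite to lists of equal length and the upper 50%. MMP1 and MMP10 were lower and MMP28 higher in ZnCl2 than untreated, and MMP10 was lower and MMP28 higher in ZnCl2 than TPA. Where these counts differ from 1 the cause was not tested, except that 2 kb flanks leave out the region upstream of MMP10. All contigs, at least 50% of a region in the window and leaving out regions over 10 kb gave 1 call each.

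A replicate block, the same sign within both replicate numbers, gave 4, 1 and 1 calls. Deviations of same-numbered libraries over coding genes correlated at 0.0853 between TPA and untreated, -0.404 between ZnCl2 and untreated and -0.0511 between ZnCl2 and TPA. These values cannot tell whether same-numbered libraries were prepared together.

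Merged regions gained or lost in the windows numbered 1, 1 and 3. With 1 library left out they numbered 4 to 5, 1 to 5 and 5 to 8, where by their rule they could not fall. Lists of equal length gave 2, 0 and 2, in which the directions of the first and last turned from gained to lost and from lost to gained. The replicate block is the same rule as the main one for these counts, so it could not change them and says nothing of their stability.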
